A study of Mus musculus with 9 samples.

Results

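A set of 5 regulators was followed here through maps of E protein binding in mouse T cell precursors. The genes were Sox4, Sox13, Etv5, Blk and Maf, 5 of the 21887 protein-coding genes of the reference, picked by name for their known part in the IL-17 programme of gamma-delta T cells. All peaks lying in the span of a gene or within 50 kb of either end were collected from the 6 peak lists, and together they numbered 41 of 79216. Sox4 had 16 peaks, Blk 9, Sox13 and Etv5 8 each, and Maf had none.

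Gamma-delta T cells that make interleukin 17 acquire this capacity in the thymus, under a set of transcription factors that act before the cells leave it. Sox4 and Sox13 are HMG-box factors, Etv5 is an Ets factor of the PEA3 group, Maf is a bZIP factor, and Blk is a Src family kinase first known from B cells. E2A and HEB, the E proteins encoded by Tcf3 and Tcf12, pair with each other on E-box sequences, and Id proteins, which antigen receptor signals induce, keep them off the DNA.

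Binding was mapped by chromatin immunoprecipitation and sequencing in 3 cell populations of the BALB/c strain, each with an E2A, a HEB and an input library, 9 libraries in all. The DN3 cells were Rag2-/- cells grown from fetal liver progenitors on OP9-DL1, stromal cells that carry a Notch ligand, and harvested at day 7 of culture. For the CD73- and CD73+ populations such cells were exposed overnight to GP+E cells producing the MIY-KN6 receptor vector in IL7 and Flt3L, sorted as YFP+ DN3 cells (Thy1.2+ CD4- CD8- CD25+ CD44-) and returned to OP9-DL1 for 3 days. They were then sorted as Thy1+ YFP+ CD4- CD8- CD24+ cells with or without CD73, and per the labels the CD73- cells could still take the alpha-beta fate while the CD73+ cells had committed to the gamma-delta fate. All 3 populations lack Rag2, so the KN6 gamma-delta receptor was the only rearranged receptor the transduced cells could carry. No cells transduced without the receptor were among the samples, and effects of the receptor, transduction, added culture and sorting cannot be told apart. Duplicates were joined by the authors before deposit, which leaves 1 list per population and antibody. No value below therefore has a replicate error, and no test between populations was possible.

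The lists held 9407 to 23205 peaks on the 21 main chromosomes, and read depth is unknown. The score of a peak is the authors' -10 log10 of its p-value, at least 50, and it orders peaks within 1 list only. The CD73+ E2A list was the longest and had the lowest share of peaks scoring at least 100, 7.02%. Peaks of the DN3 lists were wider, with medians of 617 bp (E2A) and 721 bp (HEB), than those of the other lists (149 bp to 181 bp). A gene without a peak had none called, which does not show that the factor was absent. Peaks are not RNA, so the labelled cell types could not be checked by expression. Of 6 T precursor markers (Thy1, Il2ra, Ptcra, Rag1, Cd3e and Nt5e), 5, 3 and 1 had an E2A peak within 50 kb in the DN3, CD73- and CD73+ lists, and 6, 4 and 6 a HEB peak. Of 5 B cell markers these numbers were 3, 4 and 3 for E2A and 4, 4 and 4 for HEB. In both later E2A lists more B cell than T precursor markers had a peak, but 3 of 5 is near the CD73+ share of 53.0%. The CD73+ E2A peaks were low, at 54.27 to 62.15 for B cell markers and 54.46 for Cd3e. In the CD73- E2A list the highest peaks ran from 51.93 to 152.99 for B cell and 58.32 to 96.15 for T precursor markers. Of 5 myeloid markers the numbers with a peak were 3, 2 and 2 for E2A and 4, 4 and 2 for HEB. Of 4 erythroid markers they were 1, 1 and 1 and then 1, 1 and 0, and of 5 stromal markers 2, 1 and 1 and then 3, 2 and 2. Over all protein-coding genes the shares were 49.6%, 41.3% and 53.0% for E2A and 48.1%, 37.9% and 41.8% for HEB.

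Of the 5 regulators, 4 had a peak in each DN3 list, 4 in each of the CD73- and CD73+ HEB lists, and 2 in each of the CD73- and CD73+ E2A lists. Among all protein-coding genes, windows built in the same way held a peak in 49.6% (DN3 E2A), 48.1% (DN3 HEB), 41.3% (CD73- E2A), 37.9% (CD73- HEB), 53.0% (CD73+ E2A) and 41.8% (CD73+ HEB). A peak within 50 kb was thus a common event, and having one sets none of these genes apart. Peaks in 5 or 6 lists, as at Sox4, Etv5 and Blk, were found for 19.8% of genes, and genes with no peak in any list, as Maf, made up 11.7%. As many peaks as Sox4 had, 16 or more, were found for 5.02%. With peaks scoring at least 100 alone, 4 regulators had a peak in each DN3 list, where 27.5% of all genes did so for E2A and 22.2% for HEB. In CD73- cells 2 regulators had such a peak for E2A (7.08% of genes) and 1 for HEB (9.08%), and in CD73+ cells 1 for E2A (9.11%) and 3 for HEB (15.8%). The regulators differed more in how high their peaks stood. Sox4 held a peak in the highest 2% of all 6 lists, as did 0.662% of protein-coding genes, and no other regulator had a peak that high in any list. The map of rank by gene and list shows this order, with Sox4 first in each list and Blk next in the DN3 lists and in CD73+ HEB. In the CD73- E2A list only Sox4 and Etv5 had a peak, and in the CD73+ E2A list only Sox4 and Blk.

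**Figure D1:**
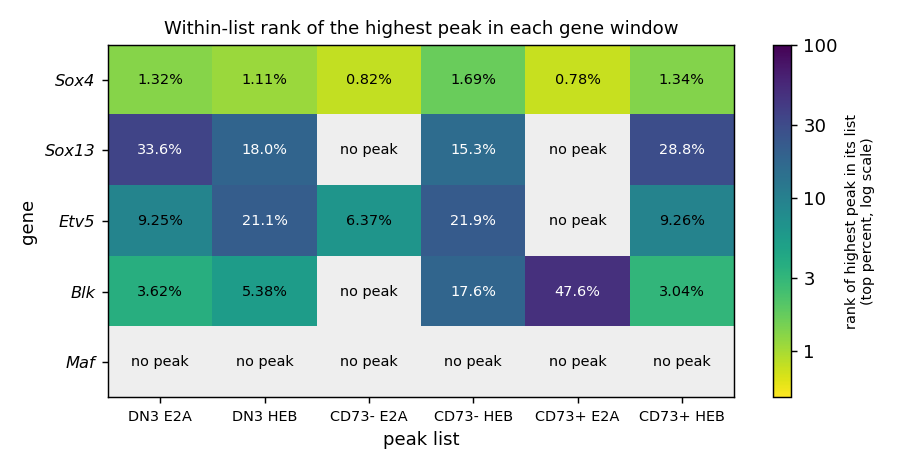
Rank of the highest peak within 50 kb of each gene, as a share of its own list from the top (log colour scale, values printed in the cells), for 5 genes (rows) and 6 lists (columns), with grey cells where no peak was called. Sox4 lies between 0.776% and 1.69% in every list, and Maf has no peak.

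Merging peaks that shared at least 1 bp gave 17 regions. In 10 of these the region consisted of a peak from 1 list, with scores from 54.70 to 96.88, all under 100. The other 7 had peaks in 2 or more lists, and each of the 7 had an E2A and a HEB peak of the same population. In the region within Dgkg near Etv5 these 2 peaks did not overlap each other. Across the genome, 10338 of 58451 regions (17.7%) had peaks in 2 or more lists, against 7 of 17 here. Both factors were found in the same cells in 6658 (11.4%), again against 7 of 17. A region from 1 list cannot hold both. Among regions with 2 or more lists the numbers were thus 6658 of 10338 and 7 of 7. The 4 genes with peaks each had 1 region with the highest peak of its window in every list that had a peak there, except that the highest CD73- HEB peak of Sox13 lay elsewhere (96.5 against 65.1). These 4, called high regions here, held 23 of the 41 peaks and 16 of the 17 that scored at least 100. As they were picked by the highest peak of each window, these numbers follow in part from the choice. The map of the windows shows the 4 as columns of points.

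**Figure D2:**
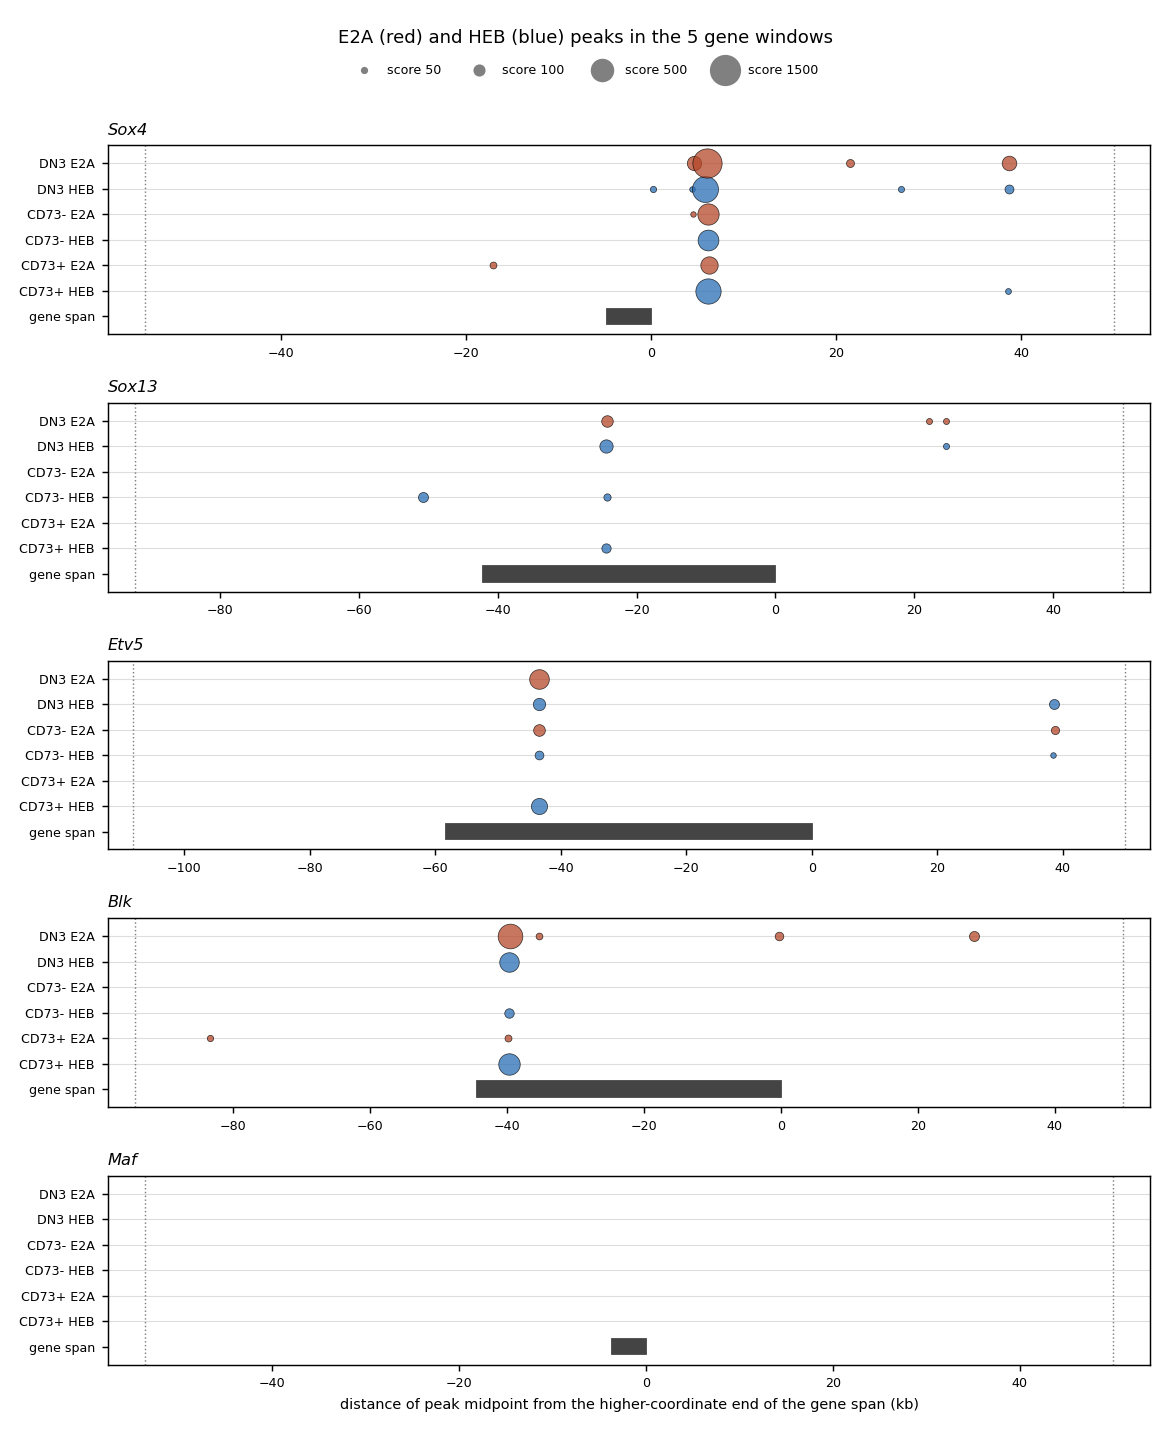
Peaks of the 6 lists (rows) in the windows of the 5 genes, by distance of the peak midpoint from the higher-coordinate end of the gene span in kb. The size of a point grows with the log of the score, red is E2A, blue is HEB, dotted lines mark the 50 kb limits and bars the gene spans. In 4 windows the points of the high region line up at 1 place, and the window of Maf is empty. At Sox13 the CD73- and CD73+ HEB points there score 65.1 and 87.1, and a higher CD73- HEB point (96.5) lies elsewhere.

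Sox4, the SoxC factor, lies on chromosome 13 at 28948919 to 28953699 on the minus strand. Its high region carried peaks in all 6 lists. There E2A scored 1467 in the DN3 list, 475 in the CD73- list and 273 in the CD73+ list, and HEB scored 926, 442 and 836 in the same order. Every one of these scores exceeded 100, which held for no other regulator. All 6 peaks shared 396 bp at 28959649 to 28960044, whose middle lay 6.15 kb upstream of the start site. Their midpoints fell within 366 bp, and all 4 peaks of the transduced cells lay inside both DN3 peaks. The core is within the span of Gm46405, a long non-coding RNA gene that also covers Sox4, and the DN3 peaks reach the edge of another, Gm52067. Regions with peaks in 6 lists made up 1.04% of all regions. Next to the core, 3 lower peaks joined the same merged region, E2A in DN3 (178) and CD73- cells (50.6) and HEB in DN3 cells (50.8), at 28957743 to 28958883. A further region at 28991752 to 28992974, over 38 kb upstream, had DN3 E2A (185), DN3 HEB (82.5) and CD73+ HEB (53.1). The last 4 regions had 1 peak each and scored 55.5 to 72.2.

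**Figure D3:**
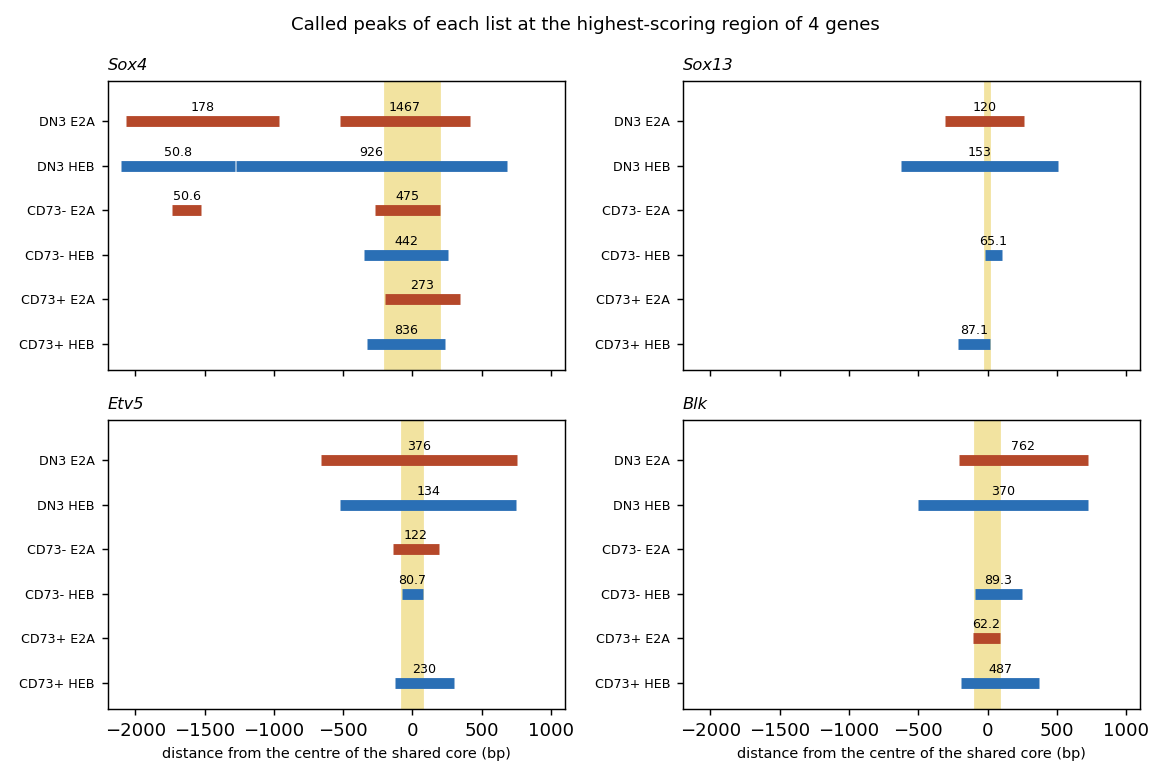
Called peaks of each list (rows) at the highest-scoring region of Sox4, Sox13, Etv5 and Blk, by distance in bp from the centre of the stretch shared by the highest peak of each list (yellow). Bars run from peak start to end, red is E2A, blue is HEB, and numbers are the authors' scores. The peaks of CD73- and CD73+ cells at each core lie within both DN3 peaks, and the E2A row is empty for some populations at every gene but Sox4.

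The promoter is where Sox4 had a peak of low score. A DN3 HEB peak of 56.5, ranked in the lower part of its list at 76.8% from the top, ran from 28953389 to 28954471 across the start site, and no other list had a peak there. No peak overlapped the 250 bases before the start of Sox13 or of either Etv5 promoter. The promoters of Sox4 and of the outer Etv5 start are shown because both hold the E-box CAGCTG while a peak was called over the former and none over the latter. They run 5′ to 3′ along the minus strand up to the base before the start site, from RefSeq (GRCm38.p6, a C57BL/6J genome and thus not that of the BALB/c cells), at chr13:28953700-28953949 and chr16:22439571-22439820. Capitals mark each match to CANNTG.
Sox4: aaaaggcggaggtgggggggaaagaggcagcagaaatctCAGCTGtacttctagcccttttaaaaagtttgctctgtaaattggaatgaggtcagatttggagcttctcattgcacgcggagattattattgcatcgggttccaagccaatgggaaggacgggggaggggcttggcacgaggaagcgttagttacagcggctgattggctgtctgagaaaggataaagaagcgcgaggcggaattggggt
Etv5: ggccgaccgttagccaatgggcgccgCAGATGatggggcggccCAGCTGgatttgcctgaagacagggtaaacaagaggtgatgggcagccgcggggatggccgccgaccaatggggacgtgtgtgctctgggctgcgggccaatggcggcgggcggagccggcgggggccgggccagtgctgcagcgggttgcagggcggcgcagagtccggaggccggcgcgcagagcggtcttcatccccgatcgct
The Sox4 stretch holds 1 match, CAGCTG, which begins 211 bases before the start. That of Etv5 holds 2, CAGATG at 224 and CAGCTG at 207 bases. The 250 bases before the Sox13 start and before the inner Etv5 start hold none. Over 32851 RefSeq promoters, 66.2% hold CANNTG, a palindromic pattern that reads alike on both strands, and 13.0% hold CAGCTG, which is 1 form of it. The table used has no promoter of Blk or Maf. The sequence of the high regions was not analysed here.

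Sox13, a SoxD factor of the gamma-delta lineage, lies on chromosome 1 at 133382300 to 133424459, also on the minus strand. In the DN3 E2A list its highest peak ranked below those of the other 3 genes with peaks. The high region, at 133399569 to 133400698 inside the gene and 24.0 kb downstream of the start, had E2A at 120 in DN3 cells and no E2A peak in CD73- or CD73+ cells. Its HEB peaks scored 153 before transduction (DN3), 65.1 in the CD73- list and 87.1 in the CD73+ list. HEB was thus called in all 3 populations and E2A in DN3 cells only, and no peak of the transduced cells reached 100. Scores do not compare between lists, however. By rank from the top of its own list, DN3 E2A stood at 33.6%, and HEB at 18.0% (DN3), 40.8% (CD73-) and 28.8% (CD73+). The stretch common to the 4 peaks measured 39 bp. A pair of low DN3 peaks, E2A 54.6 and HEB 55.3, overlapped over 24 kb beyond the higher end of the gene. A CD73- HEB peak of 96.5 lay on the other side of Sox13 in Etnk2, an ethanolamine kinase gene, and a DN3 E2A peak of 54.7 stood alone.

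Etv5 lies on chromosome 16 at 22381313 to 22439570 on the minus strand, with start sites at 22439570 and 22438368. Its high region, at 22395355 to 22396766, was inside the gene and 43.6 kb downstream of the outer start. E2A peaks there scored 376 in DN3 and 122 in CD73- cells, and none was called in CD73+ cells. HEB peaks scored 134, 80.7 and 230 in DN3, CD73- and CD73+ cells. The 5 peaks shared 153 bp, and their midpoints fell within 114 bp of each other. The other region, at 22477821 to 22478646, lay within Dgkg, a diacylglycerol kinase gene, and had DN3 HEB (96.2), CD73- E2A (74.8) and CD73- HEB (51.2). There the CD73- E2A and HEB peaks did not overlap each other, and each was joined to the region by the wider DN3 HEB peak. Of the 4 genes with peaks, Etv5 alone had no region made of a peak from 1 list.

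Blk, the Src family kinase, lies on chromosome 14 at 63372837 to 63417187. Its high region, at 63376877 to 63378106, was inside the gene near its lower end. The core of 184 bp that all its peaks shared ended 4633 bp from that end. E2A scored 762 in the DN3 list and 62.2 in the CD73+ list and had no CD73- peak, and HEB scored 370, 89.3 and 487 in DN3, CD73- and CD73+ cells. The CD73+ E2A peak ranked at 47.6% of its list, among many peaks of like score, whereas the CD73+ HEB peak ranked at 3.04%. Of the other Blk regions, 3 had a DN3 E2A peak alone, at 61.0, 78.5 and 96.9, the highest of them in Fam167a. The fourth was a CD73+ E2A peak of 57.1 beyond the lower end.

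Maf had no peak within 50 kb in any list. The nearest peaks were DN3 E2A at 83.3 kb (55.3) and CD73+ E2A at 90.4 kb (52.9), and neither overlapped a peak of another list. Looked at after the values were seen, the 300 kb on either side held 14 regions, of which 2 had peaks in 4 or more lists. At 115514114 to 115515056 on chromosome 8, 188 kb below Maf, E2A scored 149 in DN3 cells and HEB 106, 103 and 238 in DN3, CD73- and CD73+ cells. At 115413750 to 115414806, 288 kb below, E2A scored 483 in DN3 and 175 in CD73- cells and HEB 129, 140 and 218. Neither had a CD73+ E2A peak. The nearest protein-coding gene to both was Wwox, at 161 kb and 61.0 kb, with Maf next, and the data do not tie either region to a gene. For the other genes the 50 kb limit was not close to a high peak. The nearest peak left out was at 55.8 kb for Blk (CD73+ E2A, 66.5), 75.8 kb for Sox4 (53.6), 77.8 kb for Etv5 (59.0) and 125 kb for Sox13 (DN3 HEB, 173). The farthest peaks taken in, at 24.2 kb to 39.0 kb, scored 53.1 to 74.8.

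Set side by side, the 4 high regions had E2A and HEB together in DN3 cells and HEB in all 3 populations, and differed in E2A after transduction. HEB in all 3 populations held at 1 of them with scores of at least 100 alone, and at 1 and 3 where peaks were joined over 50% of both or with midpoints within 200 bp. The 50% rule cannot directly join a peak to one with less than 50% of its width, even when nested. Peaks of intermediate width can link such peaks, as at Blk, where all 5 lists stayed joined. CD73- cells had an E2A peak at the regions of Sox4 and Etv5, and CD73+ cells at those of Sox4 and Blk. To read this against the genome, regions with DN3 E2A and HEB peaks, 5292 in all, were divided by DN3 E2A score. The 4 classes start at a score of 100, so regions below it are in none. Each of the 4 high regions fell in a different class. In the class of Sox13, with scores of 100 to 200, 16.6% of 1629 regions had HEB peaks in all 3 populations. In that of Etv5, 200 to 500, 32.1% of 1405 did, in that of Blk, 500 to 1000, 63.9% of 502, and in that of Sox4, 1000 or more, 87.1% of 286. Peaks in all 6 lists, as at Sox4, were found in 58.7% of the regions of its class. A CD73- E2A peak, missing at Blk and Sox13, was present in 59.2% and 13.4% of their classes. A CD73+ E2A peak, missing at Etv5 and Sox13, was present in 14.9% and 9.88%. The presence of HEB in all populations was thus the usual state for a DN3 score like that of Sox4 or Blk and less usual for scores like those of Etv5 and Sox13, and no test was made of 4 genes chosen by name.

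**Figure D4:**
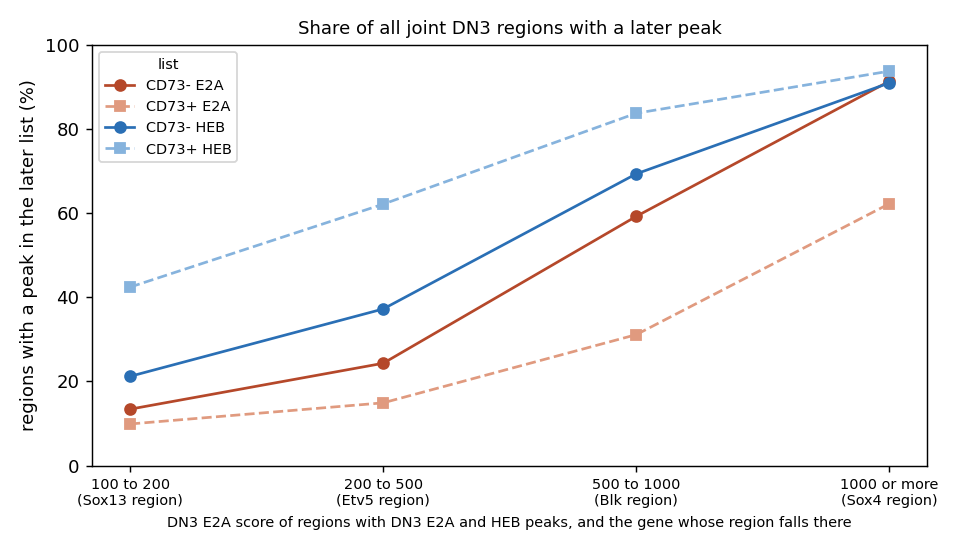
Share of regions with DN3 E2A and DN3 HEB peaks that also had a peak in a later list (vertical axis, %), by DN3 E2A score class (horizontal axis), with the regulator whose region falls in each class. Lines stand for the 4 later lists, and all 4 are higher in each class than in the one below it, with CD73+ HEB from 42.4% to 93.7% and CD73+ E2A from 9.88% to 62.2%.

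The CD73+ E2A list stood apart. At regions with a DN3 E2A score of 1000 or more it had a peak in 62.2%, against 91.3% for CD73- E2A, 90.9% for CD73- HEB and 93.7% for CD73+ HEB. Without it, the windows held 37 peaks in 15 regions, of which 7 had 2 or more lists, and the high regions of Sox4 and Blk had peaks in 5 and 4 lists. If the CD73+ E2A and HEB labels are exchanged, 4 regulators had an E2A peak and 2 a HEB peak in CD73+ cells, and HEB in all 3 populations held at 2 regions in place of 4. Its part in the differences between E2A and HEB was not tested. With scores of at least 100 alone, the high regions had peaks in 6 lists at Sox4, 4 at Etv5, 3 at Blk and 2 at Sox13.

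For each of the 4 genes, the protein-coding genes with the most similar pattern were found by the mean absolute difference, over the 6 lists, of the percentile of the highest peak within 50 kb. Sox4 was nearest to Prss38 and Snap47, which share a window and differed by 0.287 percentage points, and to Acadm (0.300). Blk was nearest to Znrf1 (2.24), Mctp2 (3.45) and Micalcl (3.77). Sox13 was nearest to Brwd1 (4.10) and to Rnf43 and Supt4a (4.27 each), and Etv5 to Krtap5-4 (4.06), Cdyl2 (4.08) and Ccne1 (4.17). These are descriptions of pattern over 6 lists, in which the E2A and HEB lists of each population share an input library.

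The other genes of the IL-17 programme, 19 in number, gave 83 pairs of gene and list with a peak out of 114. A DN3 E2A peak lay near 16 of 19 (49.6% of all genes) and a DN3 HEB peak near 17 (48.1%). In CD73- cells 11 had an E2A peak (41.3%) and 13 a HEB peak (37.9%), and in CD73+ cells 13 had each (53.0% and 41.8%). The median gene had peaks in 5 lists, against 3 over all protein-coding genes. All 19 had a peak in at least 1 list and 6 had peaks in all 6, against 9.53% of protein-coding genes. Cd163l1 and 5830411N06Rik, both among these 6, have the same peaks but are counted as separate genes in all these numbers. Ltbr, the lymphotoxin beta receptor, had the highest peak of the group in each DN3 and CD73- list but in neither CD73+ list, with E2A at 1904, 545 and 186 and HEB at 577, 467 and 715 in DN3, CD73- and CD73+ cells. Its window overlaps that of Cd27, a gene of the interferon-gamma group. Cd163l1 and 5830411N06Rik, the scavenger receptor genes that mark IL-17 gamma-delta cells, share 1 window peak set, with E2A at 922, 196 and 122 and HEB at 454, 333 and 772. Il23r, the receptor for interleukin 23, had E2A at 186, 149 and 291 and HEB at 212, 136 and 160. Il17a itself had no DN3 peak, and its peaks scored 58.9 (CD73- E2A), 73.0 (CD73- HEB) and 91.6 (CD73+ E2A). Rora, an orphan nuclear receptor gene, had no CD73- peak and scored 121 and 148 in the DN3 lists, 60.8 for CD73+ E2A and 189 for CD73+ HEB. Zbtb16, the gene of PLZF, had 142 and 94.3 in DN3 cells and 63.9 for CD73+ HEB.

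**Figure D5:**
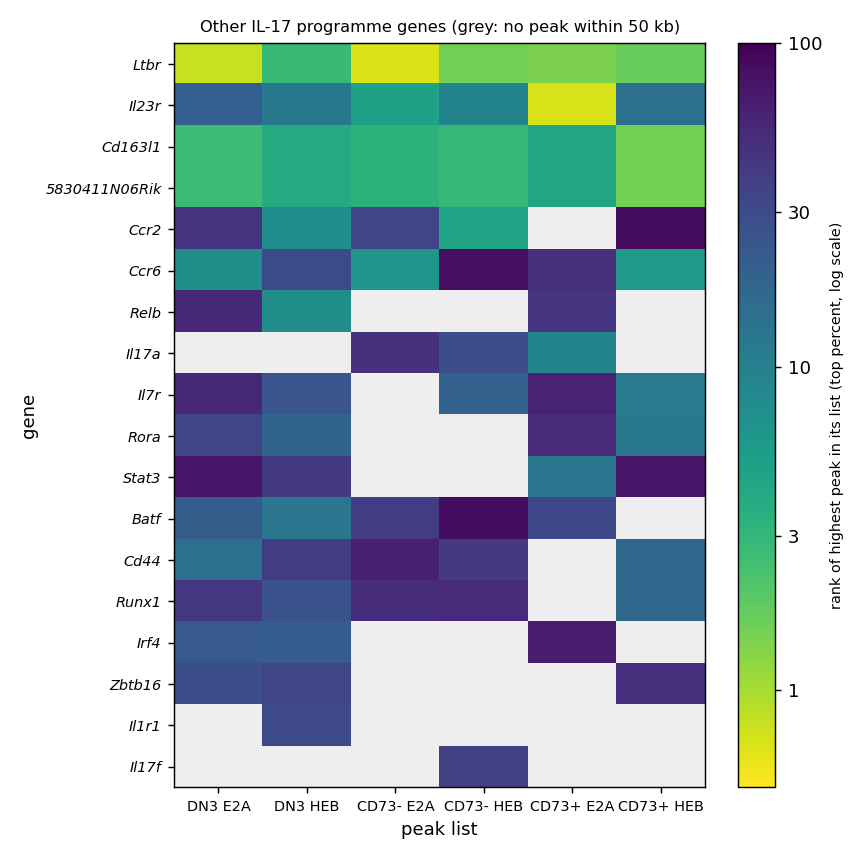
Rank of the highest peak within 50 kb of 18 of the other IL-17 programme genes (rows), as a share of its own list from the top (log colour scale), in the 6 lists (columns), with grey where no peak was called. Ltbr, Il23r, Cd163l1, 5830411N06Rik and Ccr6 have a peak in every list, and Il1r1 and Il17f in 1 list each.

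Of 11 genes that act around these regulators in early thymocytes, 10 had a DN3 E2A peak (49.6% of all genes) and 10 a DN3 HEB peak (48.1%). In CD73- cells 5 had each, near the shares of 41.3% and 37.9%, and in CD73+ cells 8 had E2A (53.0%) and 10 HEB (41.8%). Tcf7, which encodes TCF-1, had E2A at 1170, 191 and 122 and HEB at 666, 286 and 1785 in DN3, CD73- and CD73+ cells. Id3, the inhibitor of E proteins, had E2A at 2416, 432 and 248 and HEB at 1707, 966 and 2721. Tox2 had E2A at 488 in DN3 cells and HEB at 492 in CD73+ cells, and Gata3 had 4 lists with peaks. Egr3, a factor induced by the receptor, had a CD73+ HEB peak of 59.3 and no other. Of 9 genes of the interferon-gamma programme, the other main fate, in DN3 cells 7 had E2A and 8 HEB, against 49.6% and 48.1% of all genes. In CD73- cells 4 and 5 had E2A and HEB (41.3% and 37.9%), and in CD73+ cells 5 and 6 did (53.0% and 41.8%), with 4 of 9 and 5 of 9 for E2A near the share of all genes. Cd27, Ifng, Klrd1 and Eomes had its highest-ranked peaks, and Il12rb1 had none. These windows reach neighbouring genes, so a peak counted here may belong to another gene.

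Relatives of the regulators were also read out. Of the Sox relatives Sox5, Sox6, Sox11 and Sox12, Sox5 and Sox6 had peaks in all 6 lists, with DN3 E2A at 326 for Sox5 and DN3 HEB at 268 for Sox6, and Sox11 had none. In the CD73- and CD73+ lists the highest peaks scored 59.59 to 100.70 at Sox5 and 53.26 to 167.33 at Sox6. A longer gene span gives a longer window, and span length was not allowed for in these counts. Neither Etv1 nor Etv4, the PEA3 relatives of Etv5, had a DN3 peak, and Etv4 had a CD73+ HEB peak of 71.4 only. Of 7 Src family kinases, in DN3 cells 5 had E2A and 7 HEB (49.6% and 48.1% of all genes). In CD73- cells 3 and 4 had E2A and HEB (41.3% and 37.9%), the first near the share of all genes, and in CD73+ cells 2 had E2A, below the share of 53.0%, and 6 HEB (41.8%). Lck, the main such kinase of T cells, had E2A at 783 and 53.7 in DN3 and CD73- cells and none in CD73+ cells, with HEB at 348, 162 and 437. Of 6 Maf relatives, 5 had a peak in each DN3 list, 1 and 3 had E2A and HEB in CD73- cells, and 2 and 3 in CD73+ cells, against the same shares. Mafk, a small Maf gene, had peaks in all 6, with E2A at 1270, 311 and 60.6 and HEB at 741, 263 and 445, in contrast to Maf with none.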

How the data were processed

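Peak lists for E2A and HEB against input in DN3, CD73- and CD73+ cells were used as the authors deposited them. Bowtie, HOMER and MACS 1.4.2, with build mm10, are named in the submitters' processing notes, without roles. Per the labels' protocols, duplicates were joined into 1 file. The deposited score is read as the -10 log10 of the p-value of a MACS 1.4 list, and was not changed. Lists were matched to samples by population and antibody, and 0 columns were left over. Depth is not given in the files.

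Starts were written 1-based. Gene spans, start sites and promoters came from RefSeq (GRCm38.p6), which held all 5 regulators and promoters of 3. A gene was counted for peaks in its span or up to 50 kb away. Peaks of all lists were merged at an overlap of 1 bp. These steps were tested on simulated data, where 2000 of 2000 genes were right.

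Genes and lists were chosen with earlier results of these data known. The rule for names took all regulators, up to 4 genes of each wider list with the highest-ranked peaks, and Rora, Il17a, Zbtb16, Tcf7, Id3, Egr3 and Lck. A few of these genes are left out of the text and the plot but stay in the list counts, and other names were chosen after their values were seen. Alternatives were scores of 100 or more, lists of equal length, windows of 10 kb and 100 kb, peaks up to 3000 bp wide, exchanged CD73+ labels, and joining over 50% of both peaks or at midpoints within 200 bp. Leaving out the CD73+ E2A list was added after the data were seen. Python 3.11.15, numpy 2.4.6, pandas 2.3.3 and matplotlib 3.10.9 were used.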

Additional observations from a re-analysis of the deposited data

How the results depend on the processing

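With scores of at least 100, the windows held 17 peaks in 5 regions, of which 4 had 2 or more lists and 4 had both factors in the same cells. At that score 1 regulator had a CD73- HEB and 1 a CD73+ E2A peak, and 50 programme pairs had a peak. Windows of 10 kb gave 27 peaks in 8 regions, 4 with 2 or more lists and 4 with both factors, and 48 programme pairs. Windows of 100 kb gave 26 regions, and Maf then had 3 peaks. Requiring overlap over 50% of both peaks gave 27 regions. Peaks of very unlike width cannot be joined directly in this way even when nested, but only through peaks of intermediate width. At the Etv5 high region the CD73- and CD73+ peaks were 153 bp to 424 bp wide and the DN3 peaks 1268 bp to 1412 bp. The high regions of Etv5 and Sox13 joined 2 lists each under this rule. The high region of Blk kept 5 lists, with peaks from 198 bp to 1230 bp wide. That of Sox4 joined 5 lists under this rule and with midpoints within 200 bp, where the DN3 HEB peak, whose midpoint lies to one side, was left out. Lists of 9407 peaks each left 1 regulator with a CD73+ E2A peak. With the CD73+ labels exchanged, 4 regulators had an E2A and 2 a HEB peak there. The other counts for the windows, regulators and programme pairs stayed within 1.5 times the reported value, 65 of 82. No paired analysis was possible because each population and antibody has 1 pooled list. Depth is unknown, so peaks near the minimum score of 50 are the least certain, and 24 of the 41 peaks scored under 100.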
